A study of Mus musculus with 4 samples.

Results

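This account follows 8 genes, the 6 actins Acta2, Acta1, Actc1, Actg2, Actb and Actg1 and the 2 alpha-actinins Actn1 and Actn4, through RNA sequencing of sorted mouse lung endothelial cells. They were taken by gene symbol from a deposited table of 17915 coding genes, and all 8 were found and were expressed enough to be tested. The study recorded activation of alpha smooth muscle actin, the product of Acta2, in lung endothelium. Both groups came from mice of genotype Cdh5-CreER;aSMA-LSL-Dre;NR1 that had received tamoxifen 5 times and stood 6 weeks after transverse aortic constriction (TAC), a narrowing of the aorta that was used to bring on pulmonary fibrosis. The Cre recombinase is driven by the endothelial Cdh5 promoter and acts after tamoxifen. The Dre recombinase is tied to alpha smooth muscle actin and was locked until Cre had acted. Endothelial cells were green (ZsGreen+), and a cell with any past activity of alpha smooth muscle actin, however brief, was red (tdTomato+). The mark is a record, so a tdTomato+ cell need not have been making the message when it was collected. Each group had 2 libraries, which the labels call biological replicates. All libraries carried the recorder alleles and all came from operated mice, so no unoperated lung is compared. The sources used here do not give the age of the mice or the number of mice per library. They also do not say whether libraries of the same replicate number shared a mouse. Each p-value thus compares these libraries only and rests on no known number of mice.

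Actins are the proteins of thin filaments. Mammals make them from a small gene family. Acta2 and Actg2 encode the alpha and gamma smooth muscle forms, Acta1 the skeletal and Actc1 the cardiac alpha form, and Actb and Actg1 the cytoplasmic beta and gamma forms that every cell uses for its cortex and stress fibres. Alpha-actinins cross-link actin filaments into bundles and anchor them at adhesions and junctions. Actn1 and Actn4 are the non-muscle members of that family, while Actn2 and Actn3 belong to striated muscle. In the lung vessel wall Acta2 is the familiar marker of smooth muscle cells and of myofibroblasts, and its appearance in endothelial cells is commonly read as a sign of partial mesenchymal change. Muscle actin genes are known targets of the serum response factor SRF, which binds a short element called the CArG box and works with cofactors of the myocardin family that sense free actin monomer.

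The 6 actins are near copies of each other, which bears on how well reads could be assigned to each. The starts of their coding sequences are shown so that the bases that differ between isoforms can be seen. The sequences are from GENCODE M21 (GRCm38), 5′ to 3′ from the start codon over the same 72 columns of an alignment. Capitals mark bases that are not the same in all 6 genes. Alignment gaps are left out, so Actg2 shows 69 bases and Actb and Actg1 show 66, and letters after a gap do not line up.
Acta2: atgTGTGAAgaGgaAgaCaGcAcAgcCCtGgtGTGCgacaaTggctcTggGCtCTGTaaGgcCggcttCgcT
Acta1: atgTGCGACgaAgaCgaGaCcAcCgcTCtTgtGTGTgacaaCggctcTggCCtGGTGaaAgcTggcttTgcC
Actc1: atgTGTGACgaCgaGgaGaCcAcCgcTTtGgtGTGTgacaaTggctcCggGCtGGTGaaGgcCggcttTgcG
Actg2: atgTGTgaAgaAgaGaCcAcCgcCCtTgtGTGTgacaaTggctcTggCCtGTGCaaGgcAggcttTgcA
Actb: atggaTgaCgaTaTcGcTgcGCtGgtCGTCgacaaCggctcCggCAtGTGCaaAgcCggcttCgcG
Actg1: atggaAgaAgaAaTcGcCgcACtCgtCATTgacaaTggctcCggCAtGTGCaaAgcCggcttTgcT
The cytoplasmic pair lacks the TGT or TGC codon that follows the start codon in the muscle forms. It also lacks the next codon, which Actg2 lacks as well. Over the whole coding alignment 69.8% of 1131 columns were identical in all 6 genes. Acta2 shared 85.4% of aligned coding bases with Acta1, 84.3% with Actg2, 83.3% with Actb, 82.6% with Actc1 and 82.0% with Actg1. The closest pair was Actb and Actg1 at 88.6%, and Actn1 and Actn4 shared 80.1%.

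Despite this likeness, little of the Acta2 coding sequence was ambiguous. Of all 50-base stretches of it, 0.65% occurred unchanged in a transcript of another gene, and no 100-base stretch did. For Actc1 and Actg2 no 50-base stretch was shared, and for Acta1 2.87% were. The cytoplasmic actins differed in this respect. For Actb 19.7% of 50-base stretches and 1.95% of 100-base stretches occurred in other genes' transcripts, pseudogenes included. For Actg1 these figures were 100% and 91.9%, so its counts depend on how copies were treated, which no source used here gives. Against the other 7 members alone, 3.44% of Actg1 and 4.46% of Actb 50-base stretches were shared. For Actn1 and Actn4, 3.62% and 0.6% of 50-base stretches were found in another gene.

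Acta2 was the only member called different between the groups. It stood at 281 and 450 TPM in tdTomato+ replicates 1 and 2 and at 62.1 and 70.6 TPM in ZsGreen+ replicates 1 and 2. TPM is a level per length of message, scaled to the same total in every library, that lets genes be compared. Both tdTomato+ libraries lay above both ZsGreen+ libraries, and the tdTomato+ libraries lay further from each other than the ZsGreen+ libraries did. The group means were 366 ± 120 TPM (SD, n = 2) against 66.3 ± 6.03 TPM (SD, n = 2). In the deposited counts this was 5523 and 10048 reads against 1385 and 1514. Among all 17915 genes Acta2 ranked 592 and 388 by TPM in tdTomato+ cells and 2232 and 2225 in ZsGreen+ cells. Its message was thus read in all libraries, including those of cells without the recorded mark. Acta2 (NCBI Gene 11475) lies on the minus strand of chromosome 19, from 34240336 to 34255585 in GRCm38.

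The log2 fold change of Acta2 between tdTomato+ and ZsGreen+ cells was 2.29 (SE 0.29, 95% interval 1.60 to 2.97), a 4.87-fold difference. edgeR's quasi-likelihood test gave an adjusted p of 0.0432 over 13177 genes, of which 0.304% were called in either direction, 0.167% as higher and 0.137% as lower in tdTomato+ cells. It was 1 of 8 members called higher, and none was called lower. As the recorder reads this gene, the difference is foremost a check of the labels. Leaving out tdTomato+ replicate 2 ended the call, at a log2 fold change of 1.86 (edgeR adjusted p = 0.126), as did leaving out ZsGreen+ replicate 2, at 2.24 (edgeR adjusted p = 0.111). In bulk samples, fewer cells making a message and less message per cell cannot be told apart.

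**Figure D1:**
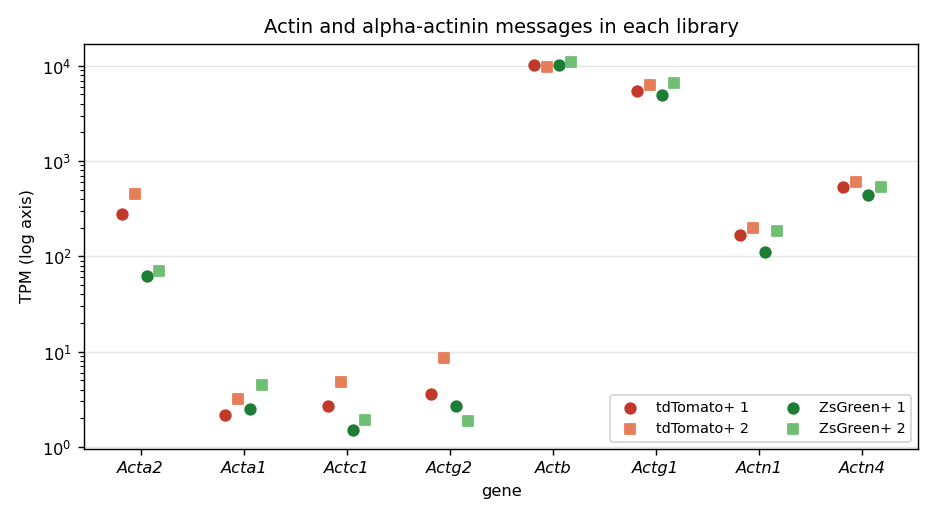
Level of each member in each of the 4 libraries, in TPM on a log axis, 1 point per library; red marks tdTomato+ and green ZsGreen+ cells. Acta2 separates the groups widely (281 and 450 against 62.1 and 70.6 TPM), while Actb and Actg1 lie near the top of the scale in all 4 libraries.

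Markers of other cell types were measured beside this result. Endothelial markers were abundant in all 4 libraries, with the summed TPM of 12 endothelial genes (such as Cldn5, Egfl7 and Kdr) at 11373 and 11457 in tdTomato+ and 12439 and 12281 in ZsGreen+ cells. Of these 12 genes 10 had a log2 fold change below 0 and 2 above, with a median of -0.16. None was called by edgeR, 1 had an unadjusted p under 0.05, and DESeq2 called 1, Cldn5. Cldn5 was lower in tdTomato+ cells, at 538.5 and 669 TPM against 817 and 1154 TPM in ZsGreen+ cells (log2 fold change -0.84, SE 0.22, edgeR adjusted p = 0.272). Of all genes tested edgeR called 0.304%, and 8.77% had an unadjusted edgeR p under 0.05. DESeq2 called 2.44% of the 13500 to which it gave an adjusted p. The 12 smooth muscle markers summed to 1805 and 2255 TPM in tdTomato+ cells and 1442 and 1286 TPM in ZsGreen+ cells, but most of that was transgelin, Tagln, at 1554 and 1972 against 1215 and 990.3 TPM. Without Tagln, Smtn and Mylk, a choice made after their values were seen, the other 9 summed to 23.1 and 40.6 TPM against 15.7 and 23.4 TPM. Myh11, the smooth muscle myosin heavy chain and defining marker (a gene picked with its values known), stood at 1.01 and 1.98 TPM against 0.59 and 1.36 TPM. Myocardin, Myocd, picked likewise, was at or under 0.11 TPM in every library. Kcnmb1 and Myocd were at 0 in ZsGreen+ replicate 2 and Synpo2 in ZsGreen+ replicate 1. Of 9 smooth muscle markers tested 6 had a log2 fold change above 0 and 3 below. Their median was 0.63, beside -0.01 for all genes tested. In TPM 4 of the 9 had both tdTomato+ libraries above both ZsGreen+ libraries, as had 28.8% of all genes tested. edgeR and DESeq2 called none of the 9. Unadjusted edgeR p lay under 0.05 for 1, the tropomyosin Tpm2 at 8.3 and 14.4 against 3.06 and 6.18 TPM. Lmod1 stood at 0.72 and 0.67 against 0.09 and 0.32 TPM (log2 fold change 1.65, SE 0.75, edgeR adjusted p = 0.613).

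Most fibroblast, leukocyte and epithelial markers had a log2 fold change above 0 as well. The 12 fibroblast markers summed to 204 and 295 TPM in tdTomato+ cells and 119 and 108 TPM in ZsGreen+ cells, with 11 of 12 log2 fold changes above 0 and a median of 1.11. edgeR called none of them, 6 had an unadjusted p under 0.05, and DESeq2 called 4, Col1a1, Col1a2, Col3a1 and Pi16. In TPM 8 of the 12 had both tdTomato+ libraries above both ZsGreen+ libraries, as had 28.8% of all genes tested. Pi16 stood at 52.4 and 64.4 TPM in tdTomato+ cells against 12.2 and 5.59 TPM in ZsGreen+ cells (log2 fold change 2.49, SE 0.43, edgeR adjusted p = 0.111). The 10 leukocyte markers summed to 8162 and 3986 TPM against 3833 and 971.2 TPM, with all 10 log2 fold changes above 0 and a median of 0.97. edgeR called none of these, 2 had an unadjusted p under 0.05 and DESeq2 called 1, Itgam. For 6 of the 10, both tdTomato+ libraries lay above both ZsGreen+ libraries in TPM, beside the same 28.8% of all genes. Epithelial markers summed to 1098 and 1210 TPM against 515 and 2362 TPM, where the club cell gene Scgb1a1 alone gave 2098 TPM in ZsGreen+ replicate 2. Without Scgb1a1, a choice made after its values were seen, the other 11 summed to 822 and 918 TPM against 436 and 264 TPM. Of the 12 epithelial markers 10 had a log2 fold change above 0, with a median of 0.85, and 7 had both tdTomato+ libraries above both ZsGreen+ libraries in TPM, a placing that 28.8% of all genes tested had. edgeR called none of the 12, 2 had an unadjusted p under 0.05 and DESeq2 called 2, Sftpc and Sftpb. Pericyte markers summed to 7.6 and 9.11 TPM against 6.48 and 13.7 TPM, with no call by edgeR or DESeq2 among 8 tested and 2 at an unadjusted p under 0.05. What part RNA of such cells had in the Acta2 difference was not tested.

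The other 3 muscle actins were rare messages in all 4 libraries. Actg2, the enteric smooth muscle form, stood at 3.57 and 8.54 TPM in tdTomato+ cells and at 2.71 and 1.88 TPM in ZsGreen+ cells, from 25 to 119 reads per library. The groups did not overlap, but tdTomato+ replicate 1 lay closer to ZsGreen+ replicate 1 than to its own replicate. The log2 fold change was 1.24 (SE 0.61, 95% interval -0.22 to 2.69, edgeR adjusted p = 0.668). Leaving out each library in turn gave 0.44 to 1.75, the lowest without tdTomato+ replicate 2.

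Actc1, the cardiac form, was read at 2.67 and 4.77 TPM in tdTomato+ cells and 1.49 and 1.93 TPM in ZsGreen+ cells, from 23 to 75 reads. Its groups did not overlap either. Its log2 fold change was 0.98 (SE 0.56, 95% interval -0.34 to 2.31, edgeR adjusted p = 0.740), and leaving out each library in turn gave 0.48 (without tdTomato+ replicate 2) to 1.36. Acta1, the skeletal form, gave 2.15 and 3.19 TPM against 2.49 and 4.46 TPM, from 31 to 68 reads. The Acta1 values of the groups overlapped, and the log2 fold change was -0.50 (SE 0.52, 95% interval -1.74 to 0.74, edgeR adjusted p = 0.888). Leaving out each library gave -0.84 (without tdTomato+ replicate 2) to -0.17 (without ZsGreen+ replicate 2). The intervals of all 3 genes take in no change, and their upper ends are a 1.67-fold rise for Acta1, 4.95-fold for Actc1 and 6.45-fold for Actg2. Markers of striated muscle were as scarce, with 11 genes summing to 6.86 and 4.2 TPM in tdTomato+ and 5.37 and 8.12 TPM in ZsGreen+ cells. Together the 3 rare muscle actins came to 8.39 and 16.5 TPM against 6.69 and 8.27 TPM.

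The cytoplasmic actins were among the most abundant messages of the cells, and neither was called different between the groups. Actb stood at 10119 and 9758 TPM in tdTomato+ cells and 10257 and 10860 TPM in ZsGreen+ cells, and had rank 1 by TPM in 3 libraries and rank 2 in ZsGreen+ replicate 2. Both tdTomato+ libraries lay just below both ZsGreen+ libraries. The log2 fold change was -0.24 (SE 0.19, 95% interval -0.70 to 0.22, edgeR adjusted p = 0.835). Actg1 stood at 5450 and 6342 TPM against 4971 and 6625 TPM, and its groups overlapped. Its log2 fold change was -0.11 (SE 0.21, 95% interval -0.61 to 0.38, edgeR adjusted p = 0.946), and its sign was not stable. On the TPM scale it was 0.03 by limma, and without tdTomato+ replicate 1 edgeR gave 0.02. The median log2 difference of all genes tested was 0.13 in TPM and -0.01 in edgeR's scaling, so small shifts such as these carry the choice of scale.

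The alpha-actinins were expressed at levels between Acta2 and the cytoplasmic actins or near Acta2. Actn4, a cross-linker of stress fibres and the cell cortex, stood at 540.3 and 605 TPM in tdTomato+ cells and 439.8 and 536.9 TPM in ZsGreen+ cells. The groups were apart only by the margin between tdTomato+ replicate 1 and ZsGreen+ replicate 2, and on TMM-scaled library-size-normalized counts (CPM) they overlapped. The log2 fold change of Actn4 was 0.09 (SE 0.20, 95% interval -0.38 to 0.55, edgeR adjusted p = 0.959). Actn1, its paralog at focal adhesions and stress fibres, stood at 169 and 199 TPM against 111 and 185 TPM, and the groups overlapped. Its log2 fold change was 0.19 (SE 0.24, 95% interval -0.37 to 0.75, edgeR adjusted p = 0.903). ZsGreen+ replicate 1 had the lowest value of both genes, and without that library the log2 fold change of Actn1 was -0.03. Without tdTomato+ replicate 2 that of Actn4 was -0.01. The striated muscle paralogs Actn2 and Actn3 were at or under 0.13 TPM in every library and were not tested.

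Across the 8 members, then, edgeR called 1 higher and none lower, and the adjusted p of the other 7 lay between 0.668 and 0.959. None of those 7 had an unadjusted p under 0.05, and DESeq2 called none of them. In TPM 4 members (Acta2, Actc1, Actg2 and Actn4) had both tdTomato+ libraries above both ZsGreen+ libraries and 1 (Actb) had both below. Of all genes tested 28.8% were apart in the first way and 8.17% in the second. In TMM-scaled CPM the members so placed were 3 and 1, where 19.9% and 18.2% of all genes were. The intervals of the 4 abundant members bound their change: from 0.615-fold to 1.16-fold for Actb, 0.655-fold to 1.303-fold for Actg1, 0.775-fold to 1.69-fold for Actn1 and 0.77-fold to 1.47-fold for Actn4. None of these reaches the lower end of the Acta2 interval, a 3.03-fold difference.

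**Figure D2:**
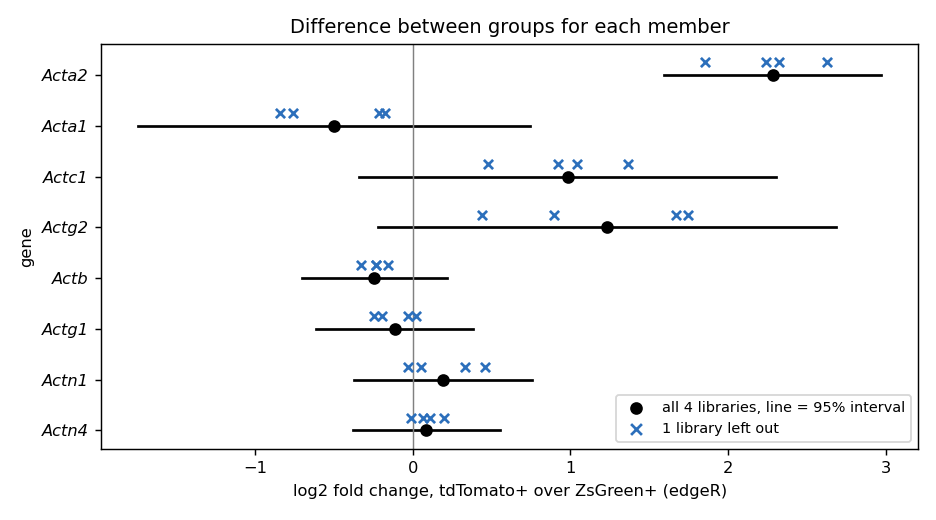
edgeR log2 fold change of each member, tdTomato+ over ZsGreen+; black points use all 4 libraries with their 95% intervals, and blue crosses leave out 1 library each. The Acta2 interval lies above 0 (1.60 to 2.97), while those of the other 7 members include 0.

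Acta2 made up a small share of the actin message in both groups, and a larger one in tdTomato+ cells. Of the summed TPM of the 6 actins it took 1.77% and 2.72% in tdTomato+ cells and 0.406% and 0.402% in ZsGreen+ cells. The group means were 2.24% ± 0.668 (SD, n = 2) and 0.404% ± 0.0027 (SD, n = 2), a difference of 1.84 percentage points. The groups did not overlap, and the exact two-sided permutation test gave p = 0.333, the smallest that 2 against 2 libraries allow. Within the 4 muscle actins Acta2 accounted for 97.1% and 96.5% of the TPM in tdTomato+ cells and 90.3% and 89.5% in ZsGreen+ cells.

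The cytoplasmic pair filled nearly all of the rest. Actb took 63.8% and 58.9% of the actin message in tdTomato+ cells and 67.1% and 61.8% in ZsGreen+ cells, and Actg1 34.4% and 38.3% against 32.5% and 37.7%. Both pairs of values overlapped between groups, with an exact two-sided permutation p of 0.667 for each. The log2 ratio of Actg1 to Actb was -0.89 and -0.62 in tdTomato+ cells and -1.05 and -0.71 in ZsGreen+ cells, a difference of 0.12 (exact permutation p = 0.667). Its sign turned without ZsGreen+ replicate 1 (-0.044) and without tdTomato+ replicate 2 (-0.014).

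**Figure D3:**
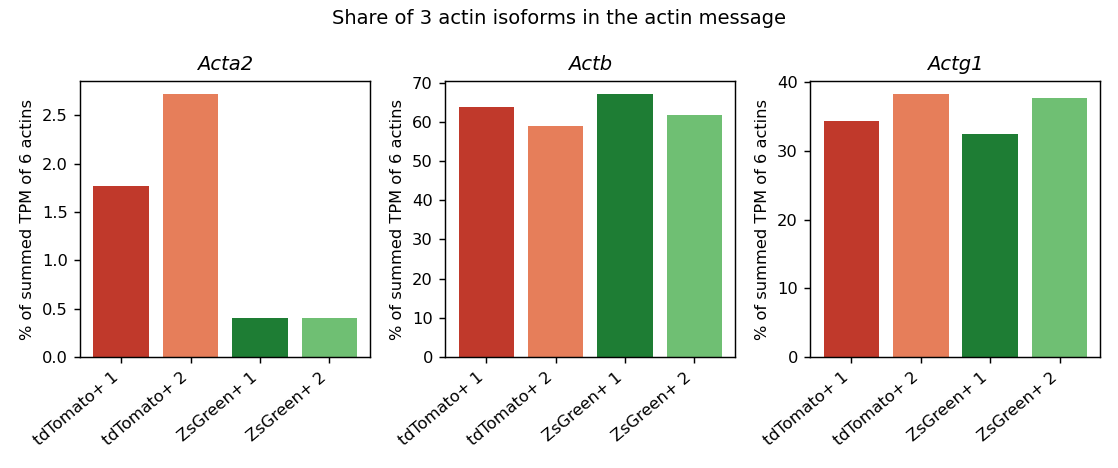
Share of Acta2, Actb and Actg1 in the summed TPM of the 6 actin genes, in percent, 1 bar per library and an axis from 0 in each panel. The Acta2 bars reach 1.77% and 2.72% in tdTomato+ cells against 0.406% and 0.402% in ZsGreen+ cells, whereas the Actb and Actg1 bars overlap between groups.

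The total actin message overlapped between the groups. The 6 actins summed to 15859 and 16566 TPM in tdTomato+ cells and 15296 and 17563 TPM in ZsGreen+ cells, and the log2 ratio of the group means was -0.02. The muscle actins together stood at 289 and 467 TPM against 68.8 and 78.9 TPM (exact permutation p = 0.333), a log2 ratio of 2.36 that is mostly that of Acta2. Cytoplasmic actins summed to 15569 and 16100 TPM against 15228 and 17485 TPM. The alpha-actinins summed to 709 and 804 TPM against 551 and 722 TPM, and overlapped as well (exact permutation p = 0.667).

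Measured against each of the other members inside the same library, Acta2 was higher in tdTomato+ cells in all 7 pairings, which share the Acta2 value and are not independent. The log2 ratio of Acta2 to Actb was -5.17 and -4.44 in tdTomato+ cells and -7.37 and -7.26 in ZsGreen+ cells. That is a difference of 2.51 between group means, a 5.71-fold change of the ratio, and it does not depend on library scaling. Against Actg1 the difference was 2.39, against Acta1 2.77, against Actc1 1.35 and against Actg2 1.14. The pairing with Actg2 came closest to overlap, at 6.30 and 5.72 against 4.52 and 5.23.

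The order of Acta2 and Actn1 differed between the groups. Acta2 exceeded Actn1 in tdTomato+ cells, with log2 ratios of 0.73 and 1.18, and lay below it in ZsGreen+ cells, at -0.84 and -1.39. Against the more abundant Actn4 it stayed below in all 4 libraries, at -0.94 and -0.43 in tdTomato+ cells and -2.82 and -2.93 in ZsGreen+ cells. In each of the 7 pairings the exact two-sided permutation p was 0.333, the smallest possible here, and it stays 0.333 after Benjamini-Hochberg adjustment over the 7. Actn4 exceeded Actn1 in all 4 libraries, with log2 ratios of 1.68 and 1.60 in tdTomato+ cells and 1.98 and 1.54 in ZsGreen+ cells (exact permutation p = 1). The difference between groups ran from -0.34 to 0.10 with 1 library left out, above 0 without ZsGreen+ replicate 1.

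**Figure D4:**
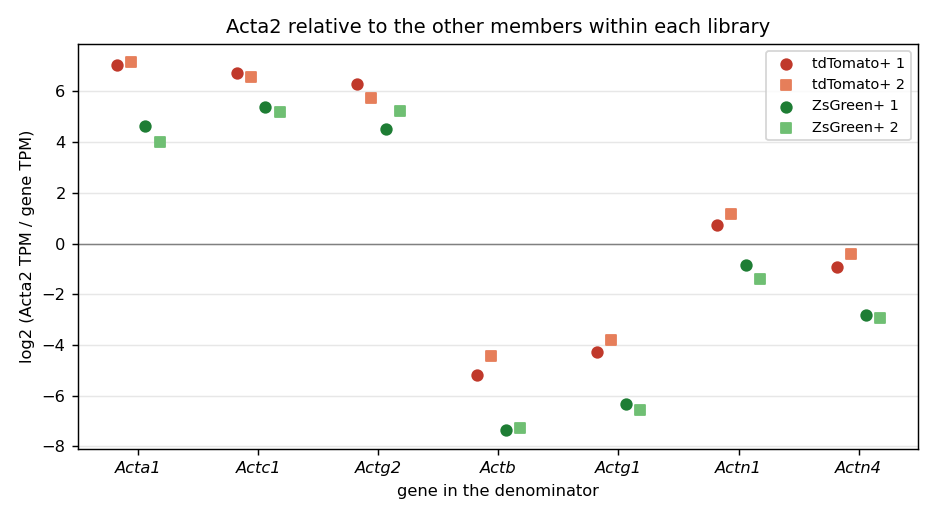
log2 ratio of Acta2 TPM to the TPM of each other member within each library; points above 0 mean more Acta2 than the gene named on the horizontal axis. Both tdTomato+ libraries lie above both ZsGreen+ libraries in all 7 pairings, and the ratio to Actn1 crosses 0 between the groups.

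By level, the order of the members in ZsGreen+ cells was Actb, Actg1, Actn4, Actn1, Acta2 and then Acta1, Actg2 and Actc1. In tdTomato+ cells Acta2 stood above Actn1, and Actg2 and Actc1 stood above Acta1. Among the rare muscle actins, Acta1 and Actc1 did not overlap in ZsGreen+ cells and Actg2 overlapped both, while in tdTomato+ cells Actg2 and Acta1 did not overlap and Actc1 overlapped both. Actn1 and Acta2 lay apart in ZsGreen+ cells, at 111 and 185 against 62.1 and 70.6 TPM, and in tdTomato+ cells in the other order, at 169 and 199 against 281 and 450 TPM.

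Sequence around the start of the members was searched for CArG boxes, since SRF is the best known regulator of actin genes. A CArG box has CC, a core of 6 A or T bases and GG, and reads the same way on both strands. The RefSeq windows (GRCm38.p6) cover 6 of the 8 members, without Actb and Actg2. In the 250 bases before the start that each window uses, 3 members held a box with all 6 core bases A or T, and 4 held a box once 5 of 6 were accepted. The windows of Actn1 and Actn4 held neither form. Of 32851 mouse windows 1.467% held the full form and 8.59% either form. The boxes are printed in capitals with 10 bases on each side, 5′ to 3′ on the gene's strand.
Acta2 first box: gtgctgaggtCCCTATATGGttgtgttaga
Acta2 second box: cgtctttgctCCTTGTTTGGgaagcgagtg
Acta1 full box: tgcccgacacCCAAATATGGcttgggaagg
Actc1 full box: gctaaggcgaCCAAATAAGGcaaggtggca
Actg1 full box: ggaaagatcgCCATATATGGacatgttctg
The Acta2 stretches lie at chr19:34255438-34255467 and chr19:34255388-34255417 on the minus strand. Both lie inside the span of the gene given above and overlap an exon annotated by GENCODE, whose Acta2 transcript starts upstream of them, at 34255590. The boxes begin 84 and 34 bases before the start that the RefSeq window uses, so the 2 annotated starts differ. Those of Acta1, Actc1 and Actg1 lie at chr8:123894829-123894858, chr2:114052903-114052932 and chr11:120348566-120348595, all on the minus strand and outside annotated exons. Acta1 also held 2 and Actc1 3 boxes of the looser form. Both Acta2 boxes have a single C or G in the core, whereas Acta1, Actc1 and Actg1 hold full boxes. Whether the form of a box bears on the level of the message was not tested. A match describes these letters and says nothing of binding.

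edgeR called no gene of the machinery that folds, assembles and modifies actin, beside 0.304% of all genes tested. At that share a list of this size would seldom hold a call, so the absence says little of these genes. Over 7 lists with 80 genes, 75 were tested. Unadjusted p lay under 0.05 for 4 of the 75, beside 8.77% of all genes, and DESeq2 called 1, Gsn, beside 2.44%. Signs were mixed, with 33 log2 fold changes above 0 and 42 below.

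The chaperonin CCT, which folds newly made actin, had all 8 subunits tested, a median log2 fold change of -0.06 and a range from -0.20 to 0.00. The subunit Cct7 stood at 222 and 216 TPM in tdTomato+ cells and 216 and 232 TPM in ZsGreen+ cells. Of the enzymes that modify actin, 8 were tested, with a median of 0.10. Mical3, an actin-oxidizing monooxygenase, had 0.54 (SE 0.25) and its relative Mical1 0.34 (SE 0.20), both short of the test. The Arp2/3 complex, which starts branched filaments, had 9 members tested, a median of -0.13 and a range from -0.29 to 0.12. Its subunit Arpc3 stood at 1125 and 1136 TPM against 1130 and 1365 TPM.

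Among the 18 monomer-binding and turnover proteins tested the median log2 fold change was -0.07. The filament-severing protein gelsolin, Gsn, was the largest departure at 82.1 and 83.3 TPM in tdTomato+ cells against 43.4 and 24.3 TPM in ZsGreen+ cells (log2 fold change 1.10, SE 0.33, edgeR adjusted p = 0.348). The capping protein Capg followed at 210 and 211 TPM against 124 and 74.3 TPM (0.88, SE 0.31, edgeR adjusted p = 0.458). Gsn and Capg are also abundant in fibroblasts and macrophages. The fibroblast and leukocyte marker lists have medians above 0 as given above, and no list of macrophage genes alone was made. What part RNA of such cells had in these 2 values was not tested. Of 10 formins tested the median was 0.07, with Fmnl1, a formin of blood cells, highest at 0.98 (SE 0.42).

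The SRF list had 7 members tested and a median log2 fold change of -0.07. The cofactors Mrtfa, at 14.1 and 14.3 against 13.8 and 17.1 TPM, and Mrtfb, at 62.9 and 44.4 against 46.1 and 43.8 TPM, overlapped between groups. Fhl2, a LIM cofactor, stood at 5.26 and 10.2 against 1.32 and 5.11 TPM (1.21, SE 0.66, edgeR adjusted p = 0.725). Proteins that bind alpha-actinin or share its adhesions had 15 of 17 members tested and a median of 0.12. Synaptopodin, Synpo, stood at 86 and 105 against 54.4 and 60.3 TPM (0.61, SE 0.20, edgeR adjusted p = 0.391). The LIM protein Pdlim4 stood at 42.8 and 22.6 against 12.9 and 5.06 TPM (1.59, SE 0.54, edgeR adjusted p = 0.435), and palladin, Palld, had 0.68 (SE 0.31). The median of all 13177 genes tested was -0.01.

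**Figure D5:**
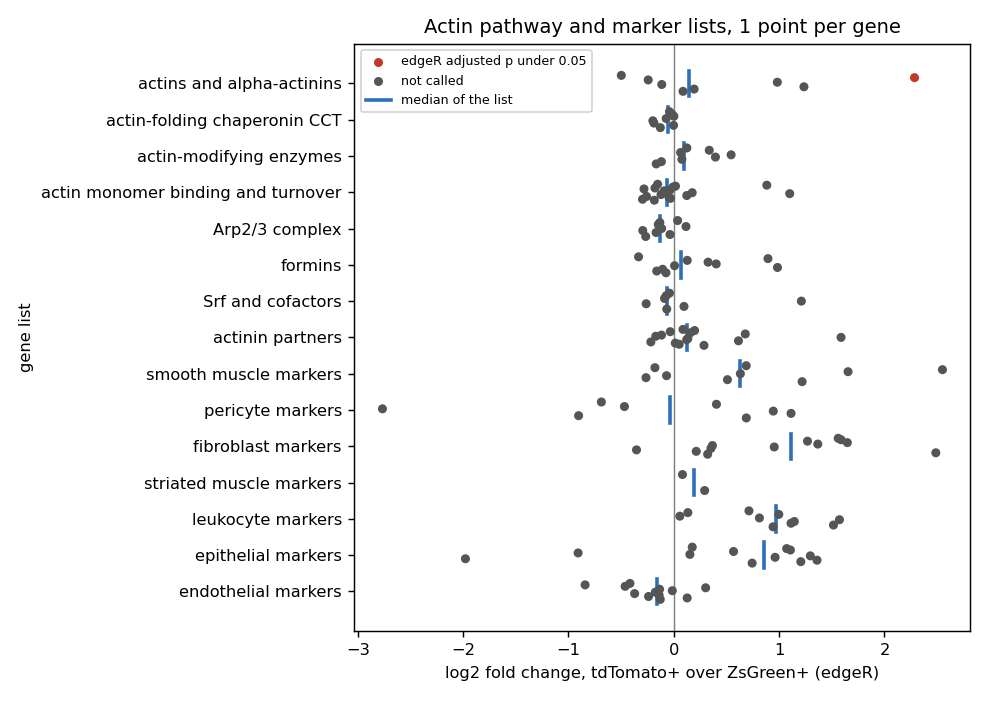
edgeR log2 fold change of each gene tested in the actin pathway and marker lists, 1 point per gene, with the median of each list as a blue bar. Acta2, in red, is the single gene edgeR called in these lists; the CCT and Arp2/3 lists lie close to 0, with medians of -0.06 and -0.13.

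The profiles most like that of Acta2 over the 4 libraries were sought by the Euclidean distance of centred log2 CPM. The search took in 10158 other genes that averaged at least 5 CPM, leaving out genes with Gm, LOC or RIKEN names. The nearest were the retinoid-binding protein Rbp7 (distance 0.07), the actin filament-associated adaptor Afap1l2 (0.15), the kinase Nuak1 (0.24), the alpha-actinin-associated LIM protein Pdlim3 (0.25) and the membrane protein Tmem255b (0.28). Rbp7 stood at 52.9 and 84.6 TPM in tdTomato+ cells and 12 and 13.2 TPM in ZsGreen+ cells. Its log2 fold change of 2.29 equalled that of Acta2, with a larger standard error in the fit (SE 0.36, edgeR adjusted p = 0.0842). Pdlim3 stood at 25.4 and 38.4 against 5.04 and 7.13 TPM (2.26, SE 0.31, edgeR adjusted p = 0.0525), and was not in the list of alpha-actinin partners. Afap1l2 stood at 14.7 and 23.3 against 3.47 and 3.42 TPM (2.31, SE 0.30, edgeR adjusted p = 0.0465) and was called. Tmem255b was called as well, at 37.0 and 50.8 against 8.75 and 9.04 TPM (2.10, SE 0.27, edgeR adjusted p = 0.0465). Nuak1, at 7.05 and 10.3 against 1.71 and 1.97 TPM, was not (2.06, SE 0.29, edgeR adjusted p = 0.0606). Of the other members Actg2 was nearest, at a distance of 1.26, then Actc1 at 1.33, and Acta1 was farthest at 2.78. The nearest genes were chosen by their profile in these same libraries. Fold changes near that of Acta2 and small p-values thus follow from the choice and are no separate result. A likeness over 4 libraries is a description of these libraries.

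On the genome the members are dispersed, each on a chromosome of its own. In the deposited table (GRCm38) Actb lies on chromosome 5 from 142903115 to 142917314, Actg1 on chromosome 11 from 120345687 to 120348495, Acta1 on chromosome 8 from 123891758 to 123894775, Actc1 on chromosome 2 from 114047282 to 114052875 and Actg2 on chromosome 6 from 83512909 to 83536251. Actn1 spans 80165460 to 80260557 on chromosome 12 and Actn4 28893248 to 28962351 on chromosome 7. GENCODE places all 8 genes on the minus strand. The table gives the plus strand for Actn1 and Actn4, and spans for Actb and Actn1 that differ from those of RefSeq.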

How the data were processed

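Per the labels' protocols, the RNeasy Micro kit served to extract RNA of the sorted lung cells, which was amplified from under 4 µL over the whole transcriptome with a Discover-sc kit, which can add spread between libraries. The authors deposited estimated counts, TPM, FPKM and a normalized signal for 17915 coding genes, per the file headers. The submitters' processing notes list RSEM 1.3.1, DESeq2 1.4.5, mm10 and GRCm38. The sources used here do not give the aligner, the strandedness or the handling of multi-mapping reads. FPKM and the normalized signal, as deposited, were not used. Libraries held 17050673 to 18574737 counts. Of the values per gene in each library, 16.2% to 17.9% were not whole numbers.

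Counts were rounded and compared with edgeR 4.0.16 (quasi-likelihood F-test, two-sided, TMM, filterByExpr with a minimum count of 10, Benjamini-Hochberg over 13177 genes, called under 0.05) in R 4.3.3. Each standard error is the size of the log2 fold change divided by the root of F. TPM shares and ratios were compared by exact permutation in SciPy 1.17.1. Coding sequences were aligned with MAFFT 7.526. Scripts were tested on simulated data. The members and lists were chosen with earlier results of these data known. Named are all members, of each other list the called genes and up to 3 of smallest p with a mean of at least 1 CPM, and the 5 profiles nearest to Acta2. Named outside this rule, with values known, are Myh11, Myocd, Smtn, Mylk, Kcnmb1, Synpo2, Actn2, Actn3, Col1a1, Col1a2 and Scgb1a1. Of the listed genes only Myh4 is not analysed here. Alternatives were DESeq2 1.42.0, upper quartile and RLE factors, no filter, a minimum count of 30, limma 3.58.1 on log2 TPM plus 1 or 0.1, leaving out each library, counts for TPM in shares and ratios, and a replicate block.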

Additional observations from a re-analysis of the deposited data

How the results depend on the processing

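Acta2 kept its direction under every alternative run, with log2 fold changes from 1.86 to 2.63 when each library was left out in turn, and lost its call in 2 of those fits, without tdTomato+ replicate 2 (1.86, edgeR adjusted p = 0.126) and without ZsGreen+ replicate 2 (2.24, edgeR adjusted p = 0.111). Over the other alternatives its adjusted p ran from 6.05e-19 (replicate block) to 0.0471 (without tdTomato+ replicate 1). No other member was called under any alternative. Actg1 turned from -0.11 to 0.035 in limma on log2 TPM with either pseudocount. With 1 library left out Actg1 ran from -0.25 to 0.023 (without tdTomato+ replicate 1), Actn1 from -0.032 (without ZsGreen+ replicate 1) to 0.46 and Actn4 from -0.013 (without tdTomato+ replicate 2) to 0.20. The cause was not tested. The number of genes called, 40, was 330 with DESeq2, 128 without a filter and 22 in limma on log2 (TPM + 0.1), and 4 (without tdTomato+ replicate 2) to 304 (without ZsGreen+ replicate 1) with 1 library left out. With counts in place of TPM the difference in the Acta2 share of muscle actins was 4.86 in place of 6.89 percentage points, and with TPM + 1 the log2 difference of Acta2 over Actc1 was 1.64 in place of 1.35. With 1 library left out the log2 ratio of summed muscle actins ran from 1.97 to 2.66, of cytoplasmic actins from -0.14 to 0.056 and of the 3 rare muscle actins from 0.17 to 1.14. The labels do not say that equal replicate numbers share a mouse. Deviations of same-numbered libraries from their group means correlated (r = 0.517 across 10360 genes, which are not independent). With 2 libraries per group, pairing unlike numbers gives the same size of r with the sign turned. Any difference that runs within both groups can give such an r, so it cannot show a shared mouse. A replicate block gave 934 calls and a log2 fold change of 2.23 for Acta2, and called no other member. Acta1, Actc1 and Actg2 rest on 23 to 119 reads a library, and their 95% intervals are wide.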
